A study of Mus musculus with 6 samples.

Results

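A group of 10 genes of the classical inflammatory cytokines and their receptors were followed in visceral fat material of obese mice with and without deletion of Hmox1, the gene of heme oxygenase-1 (HO-1), the enzyme that breaks down heme. They are Tnf with its receptors Tnfrsf1a and Tnfrsf1b, the interleukin-1 genes Il1b, Il1rn, Il1r1 and Il33, Il6 with its receptor Il6ra, and Il10. Members were chosen by symbol: a probeset counted where the platform annotation gave it 1 gene symbol equal to a member, and the probeset with the highest mean was taken where there were several. Of the 10 genes, 9 had such a probeset among the 19938 genes of the array, and Il1r1 was not analysed here. At least 3 arrays with a log2 value over 7 were reached by 6 members (Tnf, Tnfrsf1a, Tnfrsf1b, Il1rn, Il33 and Il6ra), which were tested among 11024 genes. The other 3 (Il1b, Il6 and Il10) stayed under that filter on every array.

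The Hmox1f/f PdgfraCre mice carry loxP sites around an exon of Hmox1 and a Cre recombinase under the promoter of Pdgfra, a receptor gene that marks adipose precursors (APs), the stromal cells from which adipocytes form. Controls were Hmox1f/f mice lacking Cre, so effects of the recombinase and of the deletion cannot be told apart. All mice were obese, having eaten a high-fat diet (HFD) for 8 weeks from an age of 6 weeks, and each array held RNA pooled from 2 mice, with 3 arrays per genotype (1 to 3 with Cre, 4 to 6 without). The methods describe purification of APs with beads, by depletion of leukocytes and endothelial cells and selection for SCA-1. Brightly measured genes on all arrays included macrophage, endothelial and adipocyte markers, so the AP share of this RNA is unknown. The labels describe the RNA both as AP cells and as perigonadal visceral white adipose tissue (viWAT), and the comparison asks which genes differ in it when Hmox1 is deleted in cells that express Pdgfra.

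TNF, IL-1 and IL-6 are secreted mainly by activated macrophages and stromal cells. TNF binds TNFR1 (gene Tnfrsf1a), found on most cells, and TNFR2 (Tnfrsf1b), found mostly on immune and endothelial cells, while IL-1 beta acts through IL-1R1 and is blocked by the receptor antagonist encoded by Il1rn. IL-6 acts through IL-6R (Il6ra) and the shared subunit gp130, IL-33 is an alarmin released from stromal cells, and IL-10 restrains the other cytokines. In obese fat, macrophages gather and are a known source of TNF.

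The promoter windows of 4 members are shown because they belong to the pair of TNF receptors, to the member with the largest difference and to a cytokine that stayed dim. Each window runs from 250 bases before to 50 after the RefSeq start on GRCm38.p6, on the strand of the gene, 5′ to 3′. Capitals mark matches on either strand to the kappaB consensus (bound by NF-kB), to the AP-1 site TGANTCA or to the PU.1 core GAGGAAGT, and none of these matches overlapped another.
Tnfrsf1a, chr6:125349473-125349772, plus strand: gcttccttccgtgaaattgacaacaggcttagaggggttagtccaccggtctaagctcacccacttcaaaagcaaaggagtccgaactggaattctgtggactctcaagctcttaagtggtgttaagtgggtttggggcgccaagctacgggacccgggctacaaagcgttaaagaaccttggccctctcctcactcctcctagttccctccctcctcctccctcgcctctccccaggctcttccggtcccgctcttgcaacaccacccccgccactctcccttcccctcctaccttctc
Tnfrsf1b, chr4:145246821-145247120, minus strand: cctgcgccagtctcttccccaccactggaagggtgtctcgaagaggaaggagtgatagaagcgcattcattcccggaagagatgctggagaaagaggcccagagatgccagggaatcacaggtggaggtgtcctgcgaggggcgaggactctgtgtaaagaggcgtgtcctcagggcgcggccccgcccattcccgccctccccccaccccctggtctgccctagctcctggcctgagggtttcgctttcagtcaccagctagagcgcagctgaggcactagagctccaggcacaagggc
Il1rn, first of 3 starts in the table, chr2:24336610-24336909, plus strand: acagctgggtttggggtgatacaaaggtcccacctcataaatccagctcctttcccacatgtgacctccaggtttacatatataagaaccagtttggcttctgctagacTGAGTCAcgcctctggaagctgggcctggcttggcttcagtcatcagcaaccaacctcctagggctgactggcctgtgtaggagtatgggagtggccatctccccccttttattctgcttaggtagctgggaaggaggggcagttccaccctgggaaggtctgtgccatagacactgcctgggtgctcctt
Il6, chr5:30012864-30013163, plus strand: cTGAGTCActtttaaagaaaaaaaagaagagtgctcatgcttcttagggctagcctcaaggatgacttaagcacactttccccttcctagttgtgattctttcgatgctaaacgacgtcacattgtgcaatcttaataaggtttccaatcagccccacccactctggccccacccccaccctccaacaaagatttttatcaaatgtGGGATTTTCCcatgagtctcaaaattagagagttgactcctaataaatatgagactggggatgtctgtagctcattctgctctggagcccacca

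The Il6 window held a kappaB match, GGGATTTTCC, at position -44 from the start and an AP-1 match at -249, and the Il1rn window held an AP-1 match, TGAGTCA, at -141. The windows of Tnfrsf1a and Tnfrsf1b held none of the 3 motifs, which says only that these letters are not in them. Over the 13 windows of the 9 members in the table, 2 held the kappaB consensus (those of Il6 and the second of Il1r1), 2 the AP-1 site and 0 the PU.1 core, against 4.51%, 7.81% and 3.2% of all 32851 windows of that length. GC content was 57% for Tnfrsf1a, 62.7% for Tnfrsf1b, 54% for Il1rn and 44% for Il6, beside a median of 52.7% over all windows.

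Hmox1 itself had log2 intensities of 11.25, 11.36 and 10.74 with Cre (arrays 1 to 3, in this order throughout) and 11.90, 11.63 and 12.32 without (arrays 4 to 6). It was lower with Cre on every array, with a difference of -0.83 ± 0.23 (SE) on the log2 scale (limma adjusted p = 0.266), and with array weights it was -0.53. Pdgfra differed by -0.17 ± 0.08 (adjusted p = 0.355). Hmox1f/f PdgfraCre 1 and Hmox1f/f 6 were the least alike of all arrays (r = 0.960 over genes, against up to 0.996). Epididymal genes varied between arrays within both genotypes. Spink8 was at 12.17, 5.73 and 9.99 with Cre and at 9.33, 8.23 and 5.32 without. Adam7 was at 11.68, 5.43 and 8.93 with Cre and at 5.49, 5.52 and 7.85 without. Others differed in both directions, such as Lcn5 (2.3) and Gpx5 (-1.5), which stayed under the filter.

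Macrophage markers had lower means with Cre. All 20 of the 20 markers had a lower mean and 16 had an unadjusted limma p under 0.05. Of all tested genes 57.4% had a lower mean, and 12.8% passed that threshold lower and 3.03% higher. None of the markers in this paragraph passed an adjusted limma p of 0.05, and Cd163 (-0.02) and Mertk (-0.06) were nearly flat. The mean log2 intensity of the macrophage markers was 10.71, 11.00 and 10.53 on arrays 1 to 3 and 11.25, 11.17 and 11.26 on arrays 4 to 6. This mean level differed by -0.48 ± 0.14 (SE, n = 3 and 3), with no overlap (exact permutation test, two-sided, p = 0.1, the smallest that 3 arrays against 3 allow). Gpnmb and Cd68, the brightest of these markers, were at 12.45 to 13.32 and 12.36 to 13.09 over the 6 arrays. All 5 tested mast cell markers had a lower mean with Cre, 4 of them at an unadjusted p under 0.05, with a mean level of 7.50 to 8.13 with Cre and 8.48 to 8.77 without. All 12 endothelial markers had a higher mean with Cre, 7 of them at that threshold, and their mean level was 9.47 to 9.65 with Cre and 8.98 to 9.41 without. Of 13 lymphocyte markers with a probeset 4 passed the filter, with 1 called lower, and Cd3d, Cd4 and Cd8a were among those under it. All 10 tested markers of mature adipocytes had a higher mean with Cre, 3 of them called, and Lpl and Cidec lay between 13.21 and 13.73 on all arrays. The endothelial marker Cdh5 lay between 10.69 and 11.34. Adipocyte, macrophage and endothelial genes were thus bright in material labelled as AP cells. Of 14 AP markers 8 had a lower and 6 a higher mean, with 2 called lower, and Dcn was at 13.03 to 13.22. In such bulk RNA, fewer cells of a type and less RNA per cell cannot be told apart.

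All 6 tested members had a lower mean with Cre, where 57.4% of all tested genes did, and their median difference was -0.27 beside -0.03 for all tested genes. An unadjusted p under 0.05 was reached by 1 of the 6, Tnfrsf1b, in the lower direction. The background in that direction was 12.8% of all tested genes (1406 genes), so the members' count was near the background. In the higher direction 0 of 6 members and 3.03% of all genes (334 genes) passed. These shares are also the background for the counts of the pathway lists below. No gene on the array passed an adjusted p of 0.05 in limma (0% of 11024, smallest adjusted p = 0.266). The arrays of the genotypes did not overlap for 2 tested members, Tnfrsf1a and Tnfrsf1b, both lower with Cre, against 21.2% of all tested genes in that direction, 5.82% in the other and 27% in either.

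**Figure D1:**
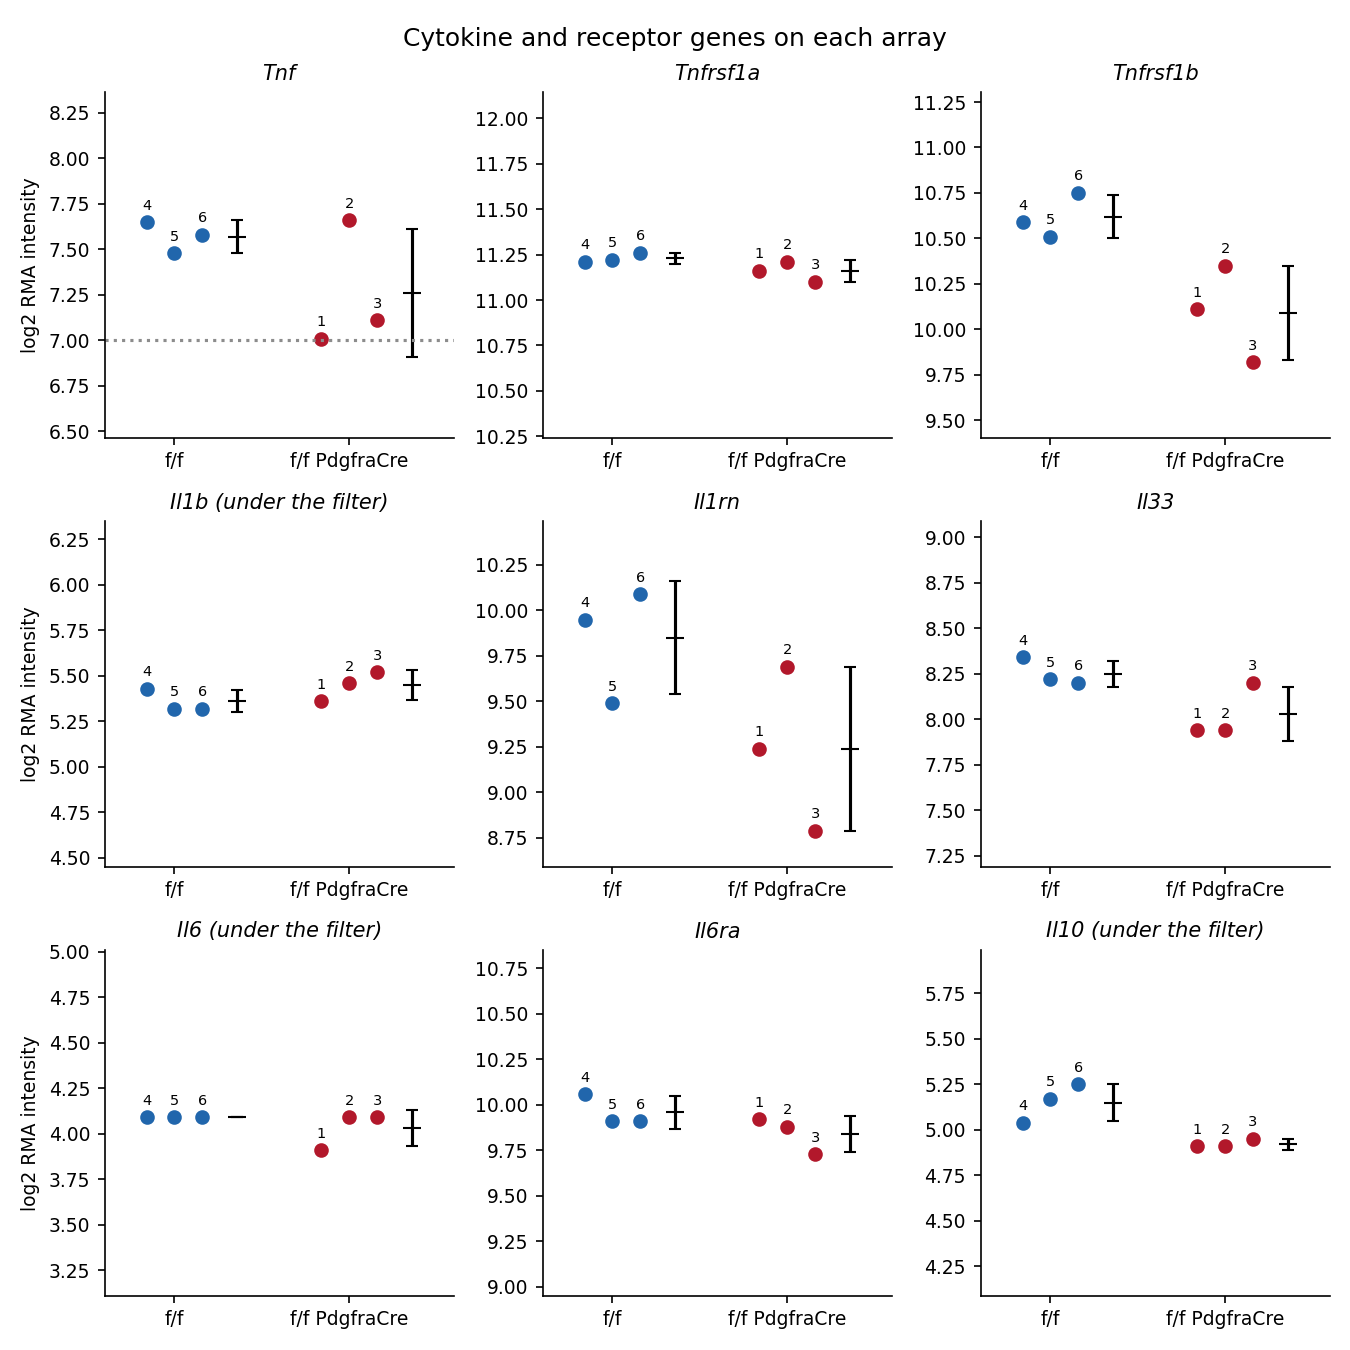
Log2 RMA intensity (y axis, each panel with the same span but its own position) of the 9 members with a probeset on each array; blue points are Hmox1f/f arrays 4 to 6, red points Hmox1f/f PdgfraCre arrays 1 to 3, and bars show mean ± SD (n = 3 each), with a dotted line at 7 where it falls in the panel. Tnfrsf1b lies between 9.82 and 10.35 with Cre and between 10.51 and 10.75 without, while Il6 stays between 3.91 and 4.09 on all arrays.

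Tnf, the ligand, was close to the filter. Its log2 intensity was 7.01, 7.66 and 7.11 with Cre and 7.65, 7.48 and 7.58 without. Arrays 1 and 3 lay below all controls, and array 2 lay above them. The means were 7.26 ± 0.35 and 7.57 ± 0.09 (SD, n = 3 each), a difference of -0.31 ± 0.18 (SE, 95% CI -0.74 to 0.11, limma adjusted p = 0.413). The value rested on single arrays: it was -0.51 without Hmox1f/f PdgfraCre 2 (adjusted p = 0.159, then with an unadjusted p under 0.05) and -0.19 without Hmox1f/f PdgfraCre 1 (adjusted p = 0.633).

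Tnfrsf1b, the TNFR2 gene, gave the only unadjusted call among the members. Its log2 intensity was 10.11, 10.35 and 9.82 with Cre and 10.59, 10.51 and 10.75 without. All 3 Cre arrays lay below all 3 controls, with array 3 the lowest and array 2 the nearest to them. The means were 10.09 ± 0.26 and 10.62 ± 0.12, a difference of -0.53 ± 0.15, or 1.44-fold lower (95% CI -0.88 to -0.17, limma adjusted p = 0.266). This was the 413th smallest p of the 11024. The difference stayed between -0.65 and -0.39 when single arrays were left out, each time with an unadjusted p under 0.05. The call was lost when Hmox1f/f PdgfraCre 1 and Hmox1f/f 6 were both left out (-0.47, adjusted p = 0.773). That setting, also used for genes below, lost most calls on the array: 448 genes were called, beside 1740 with all arrays.

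Tnfrsf1a, the TNFR1 gene, differed far less. Its log2 intensity was 11.16, 11.21 and 11.10 with Cre and 11.21, 11.22 and 11.26 without. The groups did not overlap, but array 2 lay below array 4 by less than the printed digits show, and the difference was -0.07 ± 0.07 (95% CI -0.24 to 0.09, limma adjusted p = 0.588). Of all members it had the smallest spread, 0.06 (SD over the 6 arrays).

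The TNF receptors were also compared within each array. The difference of Tnfrsf1b minus Tnfrsf1a was lower with Cre by 0.45 ± 0.13 (SE), and the 3 Cre arrays did not overlap the 3 controls (exact permutation test, two-sided, p = 0.1, the smallest possible). As Tnfrsf1a was nearly flat, this restates the difference of Tnfrsf1b.

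The members were also set against the mean of the macrophage markers on the same array, as a description with no test. That mean was itself lower with Cre, so a gene that is flat must come out higher. This held for Tnfrsf1a (0.41 ± 0.11) and Il6ra (0.37 ± 0.12). Tnfrsf1b differed by -0.04 ± 0.06 relative to the markers, Il1rn by -0.12 ± 0.20, Tnf by 0.17 ± 0.11 and Il33 by 0.25 ± 0.22, all 4 with overlap. The part of the macrophage markers in the members' differences was not tested.

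The other genes of TNF binding and release were a mixed group. Adam17, the protease that sheds TNF and its receptors from the cell surface, was at 9.78, 10.03 and 9.95 with Cre and at 10.17, 10.15 and 10.07 without, so that all Cre arrays lay below the controls (-0.21 ± 0.09, adjusted p = 0.318). Settings that called it included leaving out Hmox1f/f PdgfraCre 2 (-0.27), array weights (-0.26), median centring (-0.24) and trend and robust moderation (-0.21). Ltbr, the lymphotoxin beta receptor, differed by -0.14 (adjusted p = 0.342) and was called with array weights (-0.15). Rhbdf1, a partner of ADAM17, differed by 0.06 (adjusted p = 0.722). Of the 7 tested genes of TNF ligands, receptors and shedding, members included, 6 had a lower mean, 1 was called lower (Tnfrsf1b) and 0 higher.

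Among 21 tested TNF receptor signalling proteins, 10 had a lower and 11 a higher mean, with a median difference of 0.00. Of these 3 were called lower and 1 higher. Otulin, a deubiquitinase that trims linear ubiquitin chains, was at 7.77, 7.90 and 7.97 with Cre and at 8.27, 8.29 and 8.34 without. Its groups were well apart, with a difference of -0.42 ± 0.08 (limma adjusted p = 0.266), the 18th smallest p on the array. Sharpin, a subunit of the complex that builds linear ubiquitin chains, was lower by 0.27 ± 0.08 (adjusted p = 0.266), a call that was lost when Hmox1f/f PdgfraCre 1 and Hmox1f/f 6 were both left out (-0.28). Ripk3, the kinase of necroptosis, was the remaining call, with -0.40 ± 0.14 (adjusted p = 0.281), and it was named after its value was seen. The call was lost without any single array other than Hmox1f/f PdgfraCre 2, with differences of -0.43 to -0.29. Tab3, an adaptor of the TAK1 kinase, was the only gene called higher, at 8.63, 8.79 and 9.04 with Cre and 8.51, 8.40 and 8.26 without (0.43 ± 0.13, adjusted p = 0.266).

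Of the IL-1 genes, Il1rn, which encodes the receptor antagonist, had the largest difference of any member and also the widest spread (0.48, SD over the 6 arrays). Its log2 intensity was 9.24, 9.69 and 8.79 with Cre and 9.95, 9.49 and 10.09 without. The groups overlapped through array 2, the highest with Cre, and array 5, the lowest without. The means were 9.24 ± 0.45 and 9.85 ± 0.31, a difference of -0.61 ± 0.26, or 1.52-fold lower (95% CI -1.23 to 0.02, limma adjusted p = 0.322). An unadjusted p under 0.05 was reached without Hmox1f/f PdgfraCre 2 (-0.83, adjusted p = 0.177) and without Hmox1f/f 5 (-0.78, adjusted p = 0.418), while without Hmox1f/f PdgfraCre 3 it was -0.38 (adjusted p = 0.474). With array weights it was -0.32, and it also passed an unadjusted p of 0.05 with median centring (-0.63).

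Il33, the alarmin, was at 7.94, 7.94 and 8.20 with Cre and at 8.34, 8.22 and 8.20 without. Arrays 1 and 2 lay below the controls, and array 3 met the lowest of them. The difference was -0.23 ± 0.10 (95% CI -0.47 to 0.01, limma adjusted p = 0.33), and it passed an unadjusted p of 0.05 without Hmox1f/f PdgfraCre 3 (-0.32, adjusted p = 0.374), and also with array weights (-0.28), median centring (-0.26) and quantile normalization (-0.21). Array 3, the highest with Cre for Il33, was the lowest for Il1rn and Tnfrsf1b.

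Il1b, the main IL-1 ligand, was not measured above the filter on any array. Its log2 intensity was 5.36, 5.46 and 5.52 with Cre and 5.43, 5.32 and 5.32 without. The groups overlapped, with a difference of 0.09 (exact permutation test, two-sided, p = 0.2).

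The remaining IL-1 ligands and receptors gave no call over all 6 arrays. Il18, an inflammasome-processed cytokine, was lower on every Cre array, by 0.23 ± 0.11 (adjusted p = 0.345). Its difference was -0.13 without Hmox1f/f PdgfraCre 1, and it was called without Hmox1f/f PdgfraCre 3 (-0.30, adjusted p = 0.374) and with array weights (-0.33, adjusted p = 0.148). Il18bp, which encodes its soluble antagonist, differed by 0.10 (adjusted p = 0.578), and by 0.02 without Hmox1f/f 6. Il1rap, the co-receptor subunit shared by IL-1 and IL-33, differed by 0.03 ± 0.09 (adjusted p = 0.896), a sign that turned with other settings, and Il1rl2, the IL-36 receptor gene, by -0.26 (adjusted p = 0.43). The Il1rl2 value was -0.12 without Hmox1f/f PdgfraCre 1, and it was called without Hmox1f/f PdgfraCre 3 (-0.42, adjusted p = 0.374) and with array weights (-0.45, adjusted p = 0.147). Il1r2, the decoy receptor of IL-1, stayed under the filter, and Il1rl1, the IL-33 receptor gene, was not analysed here. Of 4 tested ligands and antagonists 3 had a lower mean and 0 were called, and of 2 tested receptors 1 had a lower mean and 0 were called.

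Downstream of these receptors, the list of adaptors and inflammasome genes held 11 tested genes, of which 10 had a lower mean, 3 were called lower and 0 higher (median -0.12). Over all tested genes, 57.4% had a lower mean, 12.8% were called lower and 3.03% higher. Pycard, the ASC adaptor of inflammasomes, was at 8.10, 8.17 and 7.94 with Cre and 8.44, 8.39 and 8.49 without, with no overlap (-0.37 ± 0.09, adjusted p = 0.266). Gsdmd, which encodes the pore protein gasdermin D, was lower by 0.32 ± 0.10 (adjusted p = 0.266), a call lost without Hmox1f/f 4 (-0.27). Tollip, an adaptor that dampens IL-1 receptor signals, was lower by 0.24 ± 0.08 (adjusted p = 0.276), a call lost without Hmox1f/f PdgfraCre 1 (-0.20) or Hmox1f/f 6 (-0.18) and with quantile normalization (-0.20). Casp1, the caspase that cuts the IL-1 beta precursor, differed by -0.02 ± 0.24 (adjusted p = 0.978), and Myd88, the adaptor of IL-1 receptors, by -0.21 ± 0.12 (adjusted p = 0.412); both were named after their values were seen.

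**Figure D2:**
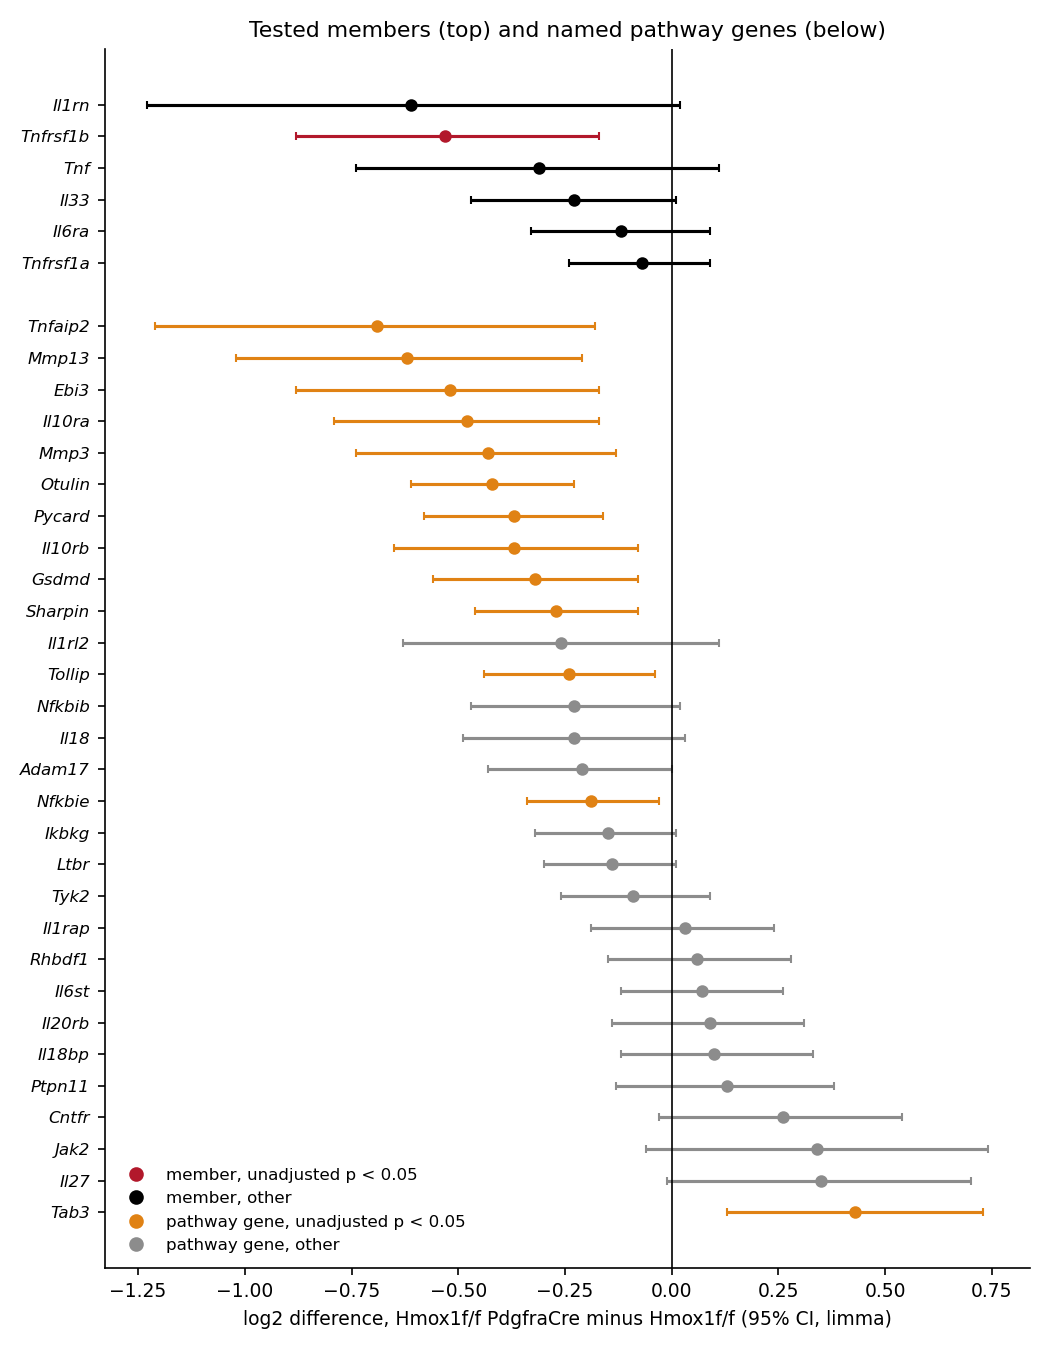
Log2 difference of Hmox1f/f PdgfraCre minus Hmox1f/f (x axis, 3 arrays each) with its 95% confidence interval from limma for the 6 tested members at the top and named pathway genes below. Colours mark an unadjusted p under 0.05. Pathway genes named after their values were seen, such as Ripk3, are left out. Among the members only the interval of Tnfrsf1b (-0.88 to -0.17) leaves out 0, and Tab3 (0.43) is the only coloured gene on the right.

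Il6 was the dimmest member. Its rounded intensities were 15, 17 and 17 with Cre and 17, 17 and 17 without, or log2 values of 3.91 and 4.09, so a difference was not detectable on these arrays (exact permutation p = 1). Il6ra, the receptor gene, was measured well, at 9.92, 9.88 and 9.73 with Cre and 10.06, 9.91 and 9.91 without. Its groups overlapped at array 1, and the difference was -0.12 ± 0.09 (95% CI -0.33 to 0.09, limma adjusted p = 0.508). Leaving out Hmox1f/f PdgfraCre 3 gave -0.06, and leaving out Hmox1f/f 4 gave -0.07.

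The other IL-6 family genes were split in direction. Il6st, the gp130 gene, was at 11.68, 11.64 and 11.79 with Cre and 11.67, 11.69 and 11.55 without (0.07 ± 0.08, adjusted p = 0.678). Of the 9 tested ligands and receptors 3 had a lower and 6 a higher mean, with a median of 0.07, and of 8 tested signalling proteins 2 had a lower and 6 a higher mean, with a median of 0.05 and 0 called. The single call was Ebi3, a subunit of IL-27 and IL-35, at 6.99, 7.15 and 6.60 with Cre and 7.43, 7.38 and 7.50 without (-0.52 ± 0.15, adjusted p = 0.266), and it was lost without Hmox1f/f PdgfraCre 1 and Hmox1f/f 6 (-0.53). Ebi3 passed the filter through the controls, as only array 2 with Cre was over 7, and such a passage favours a lower call. Its IL-27 partner Il27 differed by 0.35 ± 0.15 (adjusted p = 0.322), Cntfr, the receptor of ciliary neurotrophic factor, by 0.26 ± 0.12 (adjusted p = 0.346) and the kinase gene Jak2 by 0.34 (adjusted p = 0.359). All 3 rested on single arrays. Il27 was called without Hmox1f/f PdgfraCre 3 (0.47) or Hmox1f/f 4 (0.46) and with array weights (0.44), and was at 0.22 without Hmox1f/f PdgfraCre 1 and Hmox1f/f 6. Cntfr and Jak2 were called without Hmox1f/f PdgfraCre 2 (0.35 and 0.46) and with quantile normalization (0.28 and 0.38), and were at 0.14 and 0.17 without Hmox1f/f PdgfraCre 3. Ptpn11, a phosphatase of this pathway, differed by 0.13 (adjusted p = 0.547; 0.05 without Hmox1f/f PdgfraCre 3) and the kinase gene Tyk2 by -0.09 (adjusted p = 0.551).

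Il10 was dim on every array, at 4.91, 4.91 and 4.95 with Cre and 5.04, 5.17 and 5.25 without. The groups did not overlap, with a difference of -0.23 (exact permutation test, two-sided, p = 0.1, the smallest possible). The rounded intensities were 30, 30 and 31 with Cre and 33, 36 and 38 without. RMA values compress differences at this level, and Il10 was too dim for a real difference to be read. Both subunits of its receptor were measured above the filter and were called lower. Il10ra, the binding subunit, was at 8.29, 8.71 and 8.34 with Cre and 9.02, 8.93 and 8.84 without (-0.48 ± 0.13, adjusted p = 0.266). Il10rb, the shared subunit, was at 10.99, 11.28 and 10.92 with Cre and 11.39, 11.35 and 11.55 without (-0.37 ± 0.12, adjusted p = 0.267), a call lost without Hmox1f/f PdgfraCre 1 (-0.33), Hmox1f/f PdgfraCre 3 (-0.30) or Hmox1f/f 6 (-0.31). Il20rb, a receptor gene of the same family, differed by 0.09 (adjusted p = 0.65).

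NF-kB, the factor that TNF and IL-1 receptors activate, was followed through 16 tested genes of its subunits, kinases and feedback inhibitors. Of these 13 had a lower and 3 a higher mean, the median was -0.08, and 1 was called lower. That gene, Nfkbie, encodes an inhibitor of NF-kB and differed by -0.19 ± 0.06 (adjusted p = 0.271), a call lost without any of Hmox1f/f PdgfraCre 1 and Hmox1f/f 4, 5 or 6 (-0.19 to -0.17) and with trend and robust moderation (-0.19). Nfkbib, another inhibitor, differed by -0.23 (adjusted p = 0.334), and by -0.15 without Hmox1f/f 6, and Ikbkg, the regulatory subunit of the IkappaB kinase, by -0.15 (adjusted p = 0.339). The feedback inhibitors most used as a readout of this factor, Nfkbia and Tnfaip3, differed by -0.11 (adjusted p = 0.46) and 0.01 (adjusted p = 0.973); they were named after their values were seen.

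Among 16 tested target genes of TNF and IL-1, 11 had a lower and 5 a higher mean (median -0.10), with 3 called lower and 0 higher. The 3 were the collagenase gene Mmp13, at 6.61, 7.15 and 6.93 with Cre and 7.57, 7.29 and 7.69 without (-0.62 ± 0.17, adjusted p = 0.266), the stromelysin gene Mmp3 (-0.43 ± 0.13, adjusted p = 0.266) and Tnfaip2, a TNF-inducible gene (-0.69 ± 0.21, adjusted p = 0.266). All 3 groups of values were apart, and all 3 calls were lost without Hmox1f/f PdgfraCre 1 and Hmox1f/f 6, with differences of -0.39, -0.26 and -0.48. Tnfaip2 also lost its call without Hmox1f/f PdgfraCre 3 (-0.55). Mmp13 passed the filter of 7 through the controls, as only array 2 with Cre was over it, which favours a lower call. The chemokine genes Ccl2 and Cxcl1 differed by 0.04 (adjusted p = 0.862) and 0.03 (adjusted p = 0.857), and were named after their values were seen.

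Over all these lists, 91 genes that are no members were tested. Of these 13 (14.3%) were called lower and 1 (1.1%) higher, beside 12.8% and 3.03% of all tested genes, and their median difference was -0.05 beside -0.03. The share called lower was near that of the whole array.

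**Figure D3:**
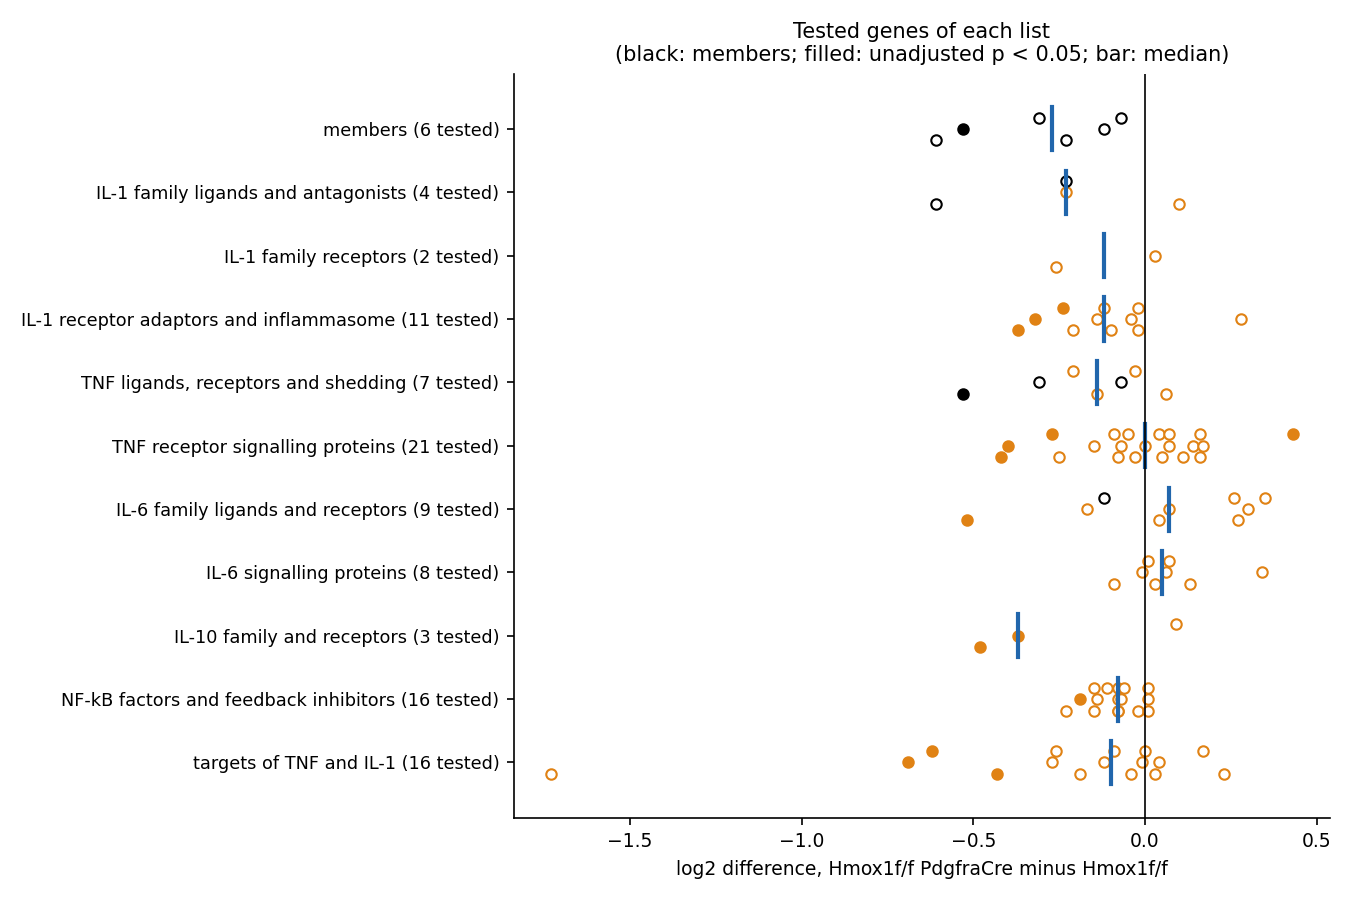
Log2 difference of Hmox1f/f PdgfraCre minus Hmox1f/f (x axis) for every tested gene of each pathway list (rows); black points are members, orange points other genes, filled points have an unadjusted limma p under 0.05, and the blue bar is the median of the list. Medians run from -0.37 for the IL-10 list (3 genes) to 0.07 for IL-6 ligands and receptors (9 genes), and the point at -1.73 is Ptgs2. With no filter the median of the IL-10 list was 0.05.

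**Figure D4:**
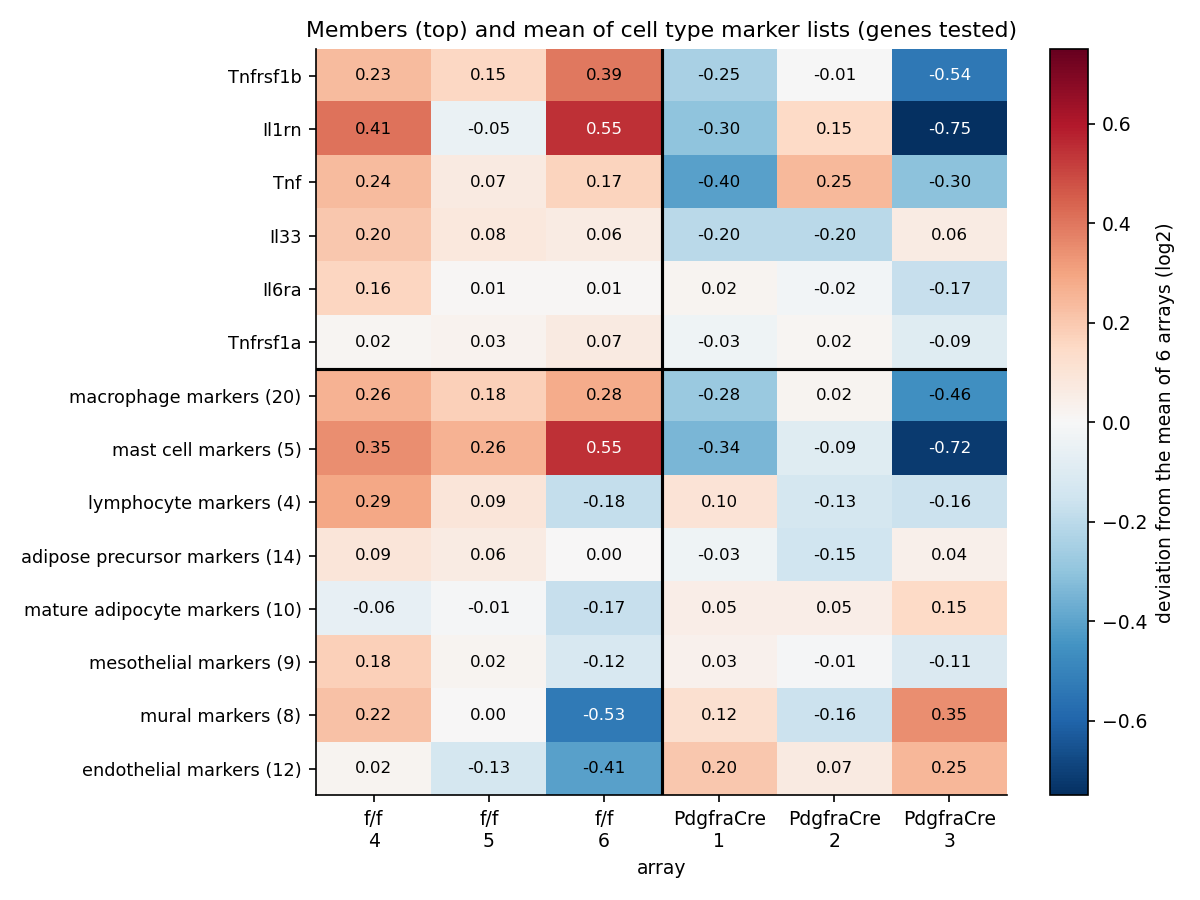
Deviation of log2 intensity from the mean of the 6 arrays (colour and printed value) for the 6 tested members and for the mean of each cell type marker list (rows, number of tested genes in brackets) on each array (columns). Hmox1f/f PdgfraCre 3 has the lowest Tnfrsf1b (-0.54), Il1rn (-0.75) and macrophage marker mean (-0.46), and Hmox1f/f PdgfraCre 2 is the Cre array nearest to the controls for these 3.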

How the data were processed

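RNA of 6 arrays was compared, 3 Hmox1f/f PdgfraCre against 3 Hmox1f/f. Per the labels, 200 ng of total RNA was amplified and hybridised per array. The intensity values deposited by the authors are linear and rounded to whole numbers (8 to 20701), and come, according to the submitters' processing notes, from robust multi-array average (RMA) in Affymetrix Expression Console 1.1. Such values understate the differences of dim probesets and hide a shift shared by most genes. Log2 was taken here.

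Of 35556 probesets, 21789 had 1 gene symbol, 1621 several and 12146 none here. For 999 genes with several probesets the brightest was used, leaving 19938 genes. Limma 3.58.1 in R 4.3.3 (lmFit and eBayes, two-sided, genotype as the only term) was fitted on all genes, and p-values of the 11024 genes above a log2 of 7 in at least 3 arrays were adjusted by Benjamini-Hochberg. "Called" means an unadjusted p under 0.05. Members under the filter were given an exact permutation test. No batch or litter is named in the labels. The limma p-values rest on the spread between these pools, with variances moderated over all genes. Values relative to the macrophage marker mean were added after its difference was known. The fit was tested on simulated data.

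The members and lists were chosen with earlier results of these data known. Named were all members, up to 3 tested genes with the smallest p per list, signalling partners of members, Hmox1, Pdgfra, and the 2 brightest genes per marker list; Ripk3, Casp1, Myd88, Nfkbia, Tnfaip3, Ccl2, Cxcl1 and Ptgs2 were added after their values were seen. Promoter windows come from RefSeq (GRCm38.p6). They were found for 9 of the 10 members. Python 3.11.15 with matplotlib 3.10.9 drew the figures. Other settings tried were no filter, a filter at 6, the filter of the methods (which also keeps only the upper tercile of mean absolute deviation, and is stated there for another set of arrays), quantile normalization, centring on the median, trend and robust moderation, array weights, the mean of all probesets, and leaving out arrays. Moderation over tested genes only was added after seeing the data.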

Additional observations from a re-analysis of the deposited data

How the results depend on the processing

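There were 16 other settings, 6 of which left out an array. Under them no tested member turned its direction, and no member passed an adjusted p of 0.05. Of the members under the filter, Il1b and Il10 kept their sign, while Il6 came to 0 without Hmox1f/f PdgfraCre 1. Tnfrsf1a came down to -0.01 with quantile normalization (limma adjusted p = 0.965). No paired analysis was possible because the genotypes share no replicate numbers (1 to 3 and 4 to 6). Members called lower rose from 1 to 2 with no filter, quantile normalization, array weights and moderation over tested genes only. The last of these was chosen after seeing the data. The shares of all genes called lower were 7.5%, 9.17%, 17.2% and 13.8% in these settings, beside 12.8% in the main one. With no filter the added call was Il10, which was too dim to be read. The count was 3 with median centring (14.3% of all genes). It fell to 0 when Hmox1f/f PdgfraCre 1 and Hmox1f/f 6 were both left out (3.25% of all genes). That last setting called 358 genes lower and 90 higher, and left 4 members without overlap. With fewer arrays, groups fail to overlap more easily, and the share of all genes without overlap was not computed there. The filter of the methods left 1 member without overlap and a median member difference of -0.42. Genes called higher rose from 334 to 609 with quantile normalization and 515 with array weights. Of the called genes 80.8% were lower, and 62.4% after quantile normalization. Without single arrays, genes called lower ran from 803 to 1490 (7.28% to 13.5%) and genes called higher from 145 to 616. Members called lower ran from 1 to 3. Members without overlap ran from 2 to 4, again with no share of all genes computed. Il1rap changed sign with median centring (0.00), with array weights (-0.07) and without Hmox1f/f PdgfraCre 3 (-0.04) or Hmox1f/f 6 (-0.01), in a range of -0.04 to 0.07 over single arrays left out. The cause of these changes was not tested. Of 160 list medians 147 moved by less than the limit set for them and 13 by more. Among the latter was the IL-10 list, at -0.14 with the filter at 6 and 0.05 with no filter. The number of arrays limits the precision, and Il1b, Il6 and Il10 were too dim for a fold to be read.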

Other observations

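Ptgs2, the gene of the inducible cyclooxygenase and a target of TNF and IL-1, had the widest spread of the pathway genes. Its log2 intensity was 7.04, 6.89 and 10.01 with Cre (arrays 1 to 3) and 11.90, 10.74 and 6.51 without (arrays 4 to 6). One array of each genotype lay at the level of the other genotype, and the difference of -1.73 ± 1.53 (limma adjusted p = 0.57) was within that spread. It depended on single arrays in both directions, at -0.64 without Hmox1f/f 4, -2.74 when Hmox1f/f PdgfraCre 3 was left out, and -3.33 when Hmox1f/f 6 was (adjusted p = 0.565, with an unadjusted p under 0.05), and it was -2.87 without both Hmox1f/f PdgfraCre 1 and Hmox1f/f 6. With array weights it was -3.20 (adjusted p = 0.168, with an unadjusted p under 0.05).

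For the 3 members with the widest spread, the genes with the most similar pattern over the 6 arrays were listed as a description, over arrays that share their genotype differences. For Il1rn they were Nosip (r = 0.999), Mfsd13a (0.999) and Sbk2 (0.998), for Tnfrsf1b Uap1l1, Creg1 and Rnh1 (each 0.999), and for Tnf Pold4 (0.990), Fastk (0.989) and Pdzd11 (0.988). With 6 arrays such values are common: 866 tested genes had an r above 0.9 with Il1rn, 1168 with Tnfrsf1b and 199 with Tnf.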
